A study of Mus musculus with 10 samples.

Results

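The 8 genes described here encode integrin chains and other adhesion molecules of leukocytes, namely Itgb2, Itgal, Itgax, Icam1, Itga4, Itgb1, Itgb7 and Selplg. They were chosen by name, and each was read from the probe set that carried its symbol alone and had the highest mean over the 10 arrays. They are 8 of the 22180 genes with such a probe set. All 8 lay above the array median in all 10 arrays and were among the 13371 genes tested. RNA came from CD11c+ dendritic cells (DCs), which take up antigen and present it to T cells, collected from the spleen with magnetic beads 4 h after mice were injected, and 1 Affymetrix Mouse Gene 2.0 ST array was run per sample. The study set mice lacking both C3ar1 and C5ar1, the receptors for the complement fragments C3a and C5a, against wild-type mice, with and without CpG, the unmethylated DNA that Tlr9 recognises. The groups were C3ar1-/-C5ar1-/- (DKO) mice given 100 µg CpG (3 arrays), DKO mice given vehicle (2 arrays), WT mice given 100 µg CpG (3 arrays) and WT mice given vehicle (2 arrays). The vehicle groups are called unstimulated, as in the labels. All 4 groups share the selection on CD11c, the protein that Itgax encodes, so the cells were chosen by the product of a gene described here. The labels give no age, sex or background strain, and they do not say whether replicates came from separate mice or how many mice stood behind an array. The p-values therefore measure the spread between these samples, which may be technical.

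Integrins are receptors built from an alpha and a beta chain that hold cells to other cells and to the matrix, and they bind firmly after signals from inside the cell have changed their shape. The chain encoded by Itgb2 pairs with that of Itgal to form LFA-1, which binds Icam1, and with that of Itgax to form the complement receptor p150,95. The chain of Itga4 pairs with that of Itgb1 to form VLA-4, a receptor for Vcam1 and fibronectin, or with that of Itgb7 to form LPAM-1, which guides cells to the gut by binding Madcam1. Selplg encodes PSGL-1, the main ligand of the selectins, on which leukocytes roll. DCs use these molecules to leave the blood, to stay in or move through tissue and to hold T cells in the immune synapse.

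Promoter windows of 5 of the 8 members, running from 250 bases before to 50 bases after a transcription start, were found in the RefSeq table for GRCm38.p6 (Itgax, Itgb7, Itga4, Itgb1 and Icam1). The windows of Icam1, Itgb7 and Itgax are shown because these are the members with the largest CpG differences in WT DCs. Each is written 5′ to 3′ on the strand of its gene, with matches to the motifs searched in capitals.
Icam1 (chr9:21015690-21015989, plus strand): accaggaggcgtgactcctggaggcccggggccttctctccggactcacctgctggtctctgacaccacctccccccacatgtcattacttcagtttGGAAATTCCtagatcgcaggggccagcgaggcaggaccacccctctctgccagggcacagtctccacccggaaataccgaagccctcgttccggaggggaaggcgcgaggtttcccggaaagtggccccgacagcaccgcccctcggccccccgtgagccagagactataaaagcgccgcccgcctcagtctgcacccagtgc
Itgb7 (chr15:102231886-102232185, minus strand): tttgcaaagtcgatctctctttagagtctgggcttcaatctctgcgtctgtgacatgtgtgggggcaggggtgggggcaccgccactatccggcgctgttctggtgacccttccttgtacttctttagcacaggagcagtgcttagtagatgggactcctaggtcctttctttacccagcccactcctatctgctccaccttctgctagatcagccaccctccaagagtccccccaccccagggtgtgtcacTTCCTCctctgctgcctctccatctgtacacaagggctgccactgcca
Itgax (chr7:128129300-128129599, plus strand): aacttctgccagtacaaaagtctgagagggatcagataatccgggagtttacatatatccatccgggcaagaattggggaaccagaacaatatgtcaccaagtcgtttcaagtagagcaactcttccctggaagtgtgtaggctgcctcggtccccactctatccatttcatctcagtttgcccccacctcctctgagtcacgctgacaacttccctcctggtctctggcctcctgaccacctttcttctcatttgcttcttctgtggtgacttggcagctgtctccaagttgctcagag
Both strands were searched for the NF-kB-like words GGGNNTTCC and GGAAATTCC and for GAGGAA, the core that PU.1 and related factors bind. The capitals in Icam1 mark GGAAATTCC, which began 153 bases before the start and stood in 0.317% of all 32851 windows of the table. The capitals in Itgb7 mark GAGGAA read on the opposite strand, beginning at base 253 of the window, and 28.3% of all windows held this word. The Itgb7 window lies inside the annotated gene, which runs from 102215994 to 102233405 on the minus strand. Its transcription start is therefore not the one at the 5′ end of that gene. The Itgax and Itga4 windows held none of the 3 words. The Itgb1 window (chr8:128685404-128685703, plus strand) held GGGCTTTCC, a form of GGGNNTTCC, beginning 164 bases before the start, and GAGGAA beginning 9 bases before it. GGGNNTTCC stood in 5.82% of all windows. A match is a description of letters and does not show that a factor binds there.

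The arrays carried the markers of the labelled cells. All 7 tested conventional DC markers lay above the array median in all 10 arrays. All 11 tested splenic macrophage markers and all 5 tested monocyte markers did so too, so this count does not set DCs apart from those cells. The array medians ran between 5.50 and 5.56 log2 intensity, the unit of the deposited values, on which a difference of 1 is a 2-fold change. C3ar1 measured 5.27 to 5.64 in the 5 DKO arrays and 5.80 to 6.59 in the 5 WT arrays, and C5ar1 measured 4.42 to 4.99 in DKO and 5.51 to 7.32 in WT. Where the probes lie relative to the deleted parts is not given in the sources used here. DKO unstimulated 2 and DKO CpG 3 stood apart from the other 8 arrays, with a mean of 8.64 and 8.42 over the 11 tested splenic macrophage markers, against 9.99 to 10.5 in the others. These 2 arrays also lacked Y-linked signal, which the other 3 DKO arrays carried and no WT array did, and within DKO they are the arrays with titles numbered 20 and over, so sex-linked signal and title series cannot be told apart there. The labels' text names a labelling kit for a first batch and assigns no sample to it, so batches could not be assigned.

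Icam1 was higher and Itgb7 was lower after CpG in the DCs of both genotypes. Icam1 was 2.35-fold higher in DKO and 2.43-fold higher in WT. Itgb7 fell to 55.0% of its unstimulated level in DKO DCs and to 39.5% in WT DCs. Itgax, Itgal and Itgb2 also fell in WT DCs, while Itga4, Itgb1 and Selplg did not pass the test in either genotype. By limma's moderated test, with Benjamini-Hochberg adjustment over 13371 genes and an adjusted p under 0.05 as the call, 1 of 8 members was called higher and 1 lower for CpG in DKO, where 4.54% of all tested genes were called higher and 5.76% lower. For CpG in WT 1 of 8 was called higher and 4 lower, against 8.24% and 13.3% of all tested genes. The median CpG difference of the 8 members was 0.03 in DKO and -0.17 in WT, beside -0.04 over all tested genes in each genotype. At an unadjusted p under 0.05 the members counted 3 of 8 in DKO, where 25.0% of all tested genes passed that threshold, and 7 of 8 in WT, against 32.7%.

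**Figure D1:**
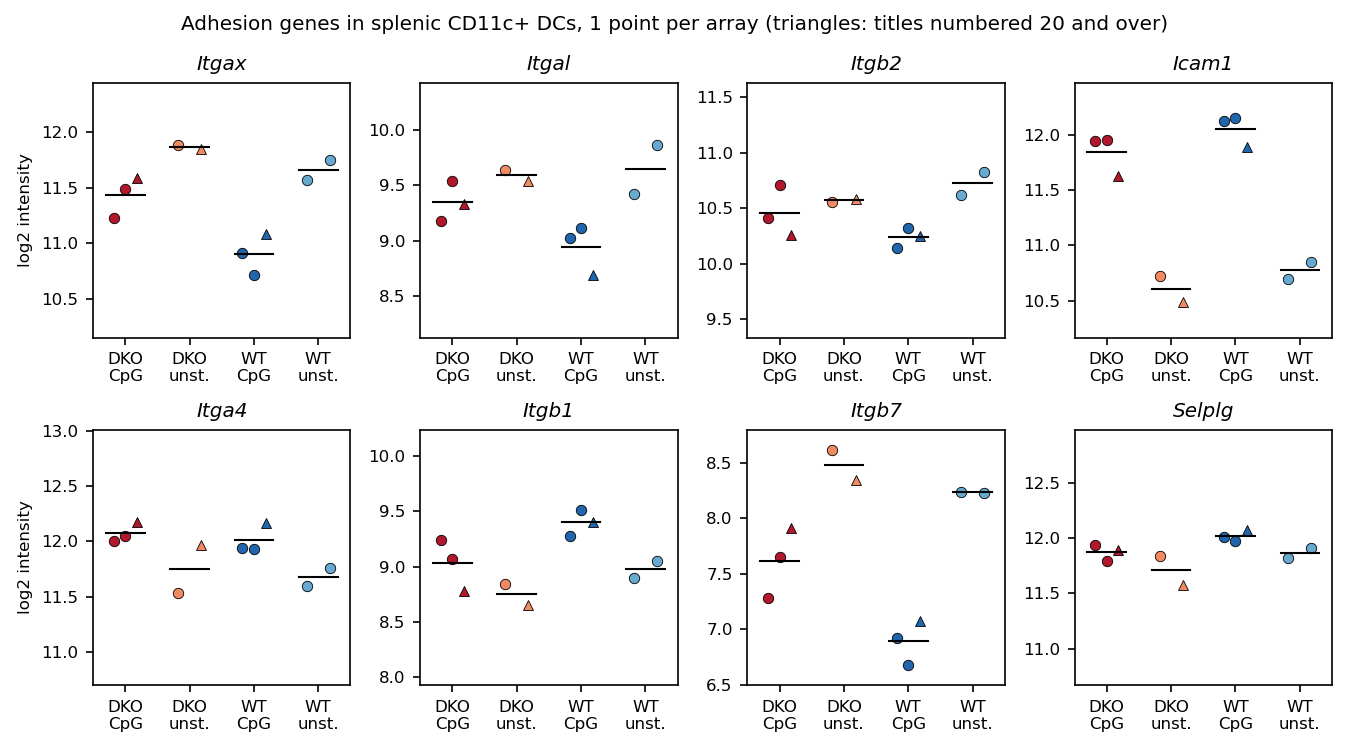
Log2 intensity (vertical axis, each panel spanning the same number of log2 units) of the 8 members in the 4 groups, with 1 point per array, a bar at the group mean and triangles for titles numbered 20 and over. Icam1 lies above 11.6 in all 6 CpG arrays and below 10.9 in all 4 unstimulated arrays, and Itgb7 lies below 8 in all 6 CpG arrays and above 8.2 in all 4 unstimulated arrays.

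Itgb2, the beta chain shared by LFA-1 and p150,95, measured 10.41, 10.71 and 10.26 in the DKO CpG arrays, against 10.56 and 10.59 in the DKO unstimulated arrays. The DKO groups overlapped, with DKO CpG 2 the highest of the 5 arrays, and CpG minus unstimulated was -0.11 ± 0.15 (standard error; adjusted p = 0.709). In WT DCs Itgb2 measured 10.14, 10.33 and 10.25 after CpG, against 10.62 and 10.83 without stimulation. All 3 WT CpG arrays lay below both WT unstimulated arrays, at a difference of -0.49 ± 0.15 (adjusted p = 0.0370). This call rested on every WT array. It was lost without WT CpG 1 (0.109), WT CpG 2 (0.0569), WT CpG 3 (0.0757), WT unstimulated 1 (0.0803) or WT unstimulated 2 (0.245), and with no filter on low values (0.0571), and its adjusted p ran from 0.0135 to 0.345 over the 24 alternative settings.

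Itgal, the alpha chain of LFA-1, measured 9.18, 9.54 and 9.33 in DKO CpG arrays, against 9.64 and 9.53 in DKO unstimulated arrays. The DKO ranges met at DKO CpG 2, and the difference was -0.24 ± 0.18 (adjusted p = 0.467). In WT arrays Itgal measured 9.02, 9.12 and 8.69 after CpG, against 9.42 and 9.87 without stimulation, with no overlap and a difference of -0.70 ± 0.18 (adjusted p = 0.0176). Without WT CpG 3 the WT difference was -0.57 (adjusted p = 0.0538) and without WT unstimulated 2 it was -0.48 (adjusted p = 0.186), in a range of 0.00947 to 0.447 over its alternatives. Within the titles numbered under 20 the WT difference was -0.57 (2 arrays against 2) and the DKO difference was -0.28 (2 against 1).

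Itgax, the alpha chain that is CD11c itself, measured 11.23, 11.49 and 11.59 in DKO CpG arrays, against 11.89 and 11.85 in DKO unstimulated arrays. All 3 CpG arrays lay below both unstimulated ones, yet the difference of -0.44 ± 0.15 did not pass (adjusted p = 0.0915). In WT arrays it measured 10.91, 10.72 and 11.09 after CpG, against 11.58 and 11.75 without stimulation, again without overlap. The WT difference was -0.76 ± 0.15 (adjusted p = 0.00493), a fall to 59.1% of the unstimulated level. It was lost without WT unstimulated 2 (adjusted p = 0.0599), in a range of 0.00118 to 0.468 over its alternatives. Within titles numbered under 20 the CpG difference was -0.53 in DKO and -0.85 in WT.

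Icam1, the ligand of LFA-1 on antigen-presenting cells and endothelium, measured 11.95, 11.95 and 11.62 in DKO CpG arrays, against 10.73 and 10.49 in DKO unstimulated arrays. In WT DCs it measured 12.13, 12.15 and 11.88 after CpG, against 10.70 and 10.85 without stimulation. Every CpG array of either genotype lay above every unstimulated array. CpG minus unstimulated was 1.23 ± 0.15 in DKO (95% interval 0.91 to 1.56, adjusted p = 0.00112) and 1.28 ± 0.15 in WT (0.95 to 1.61, adjusted p = 0.000287). Leaving out any 1 array left both calls in place, with adjusted p of at most 0.0157 in DKO and 0.00621 in WT. Within the titles numbered under 20 the difference was 1.22 in DKO and 1.36 in WT, and within those numbered 20 and over it was 1.14 in DKO (1 array against 1).

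Itgb7, the beta chain of LPAM-1 that also pairs with the Itgae chain (CD103), measured 7.28, 7.65 and 7.92 in DKO CpG arrays, against 8.61 and 8.34 in DKO unstimulated arrays. In WT arrays it measured 6.92, 6.68 and 7.08 after CpG, against 8.24 and 8.23 without stimulation. The groups did not overlap in either genotype, and the 3 WT CpG arrays were the lowest of all 10. The difference was -0.86 ± 0.19 in DKO (adjusted p = 0.0172) and -1.34 ± 0.19 in WT (adjusted p = 0.000769). The DKO call was lost without DKO unstimulated 1 (-0.73, adjusted p = 0.109), without DKO unstimulated 2 (-0.996, adjusted p = 0.0561) and in a fit of the 5 DKO arrays alone (adjusted p = 0.0825), in a range of 0.00493 to 0.580 over its alternatives. Within titles numbered under 20 the difference was -1.15 in DKO and -1.43 in WT, and within those numbered 20 and over it was -0.43 in DKO (1 array against 1).

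Itga4, the alpha chain that pairs with either Itgb1 or Itgb7, measured 12.01, 12.05 and 12.18 in DKO CpG arrays, against 11.53 and 11.97 in DKO unstimulated arrays. In WT arrays it measured 11.94, 11.93 and 12.16 after CpG, against 11.60 and 11.76 without stimulation. The CpG arrays lay above the unstimulated ones in both genotypes, by a gap of 0.04 in DKO and 0.17 in WT. The difference was 0.33 ± 0.15 in each genotype and passed in neither (adjusted p = 0.204 in DKO and 0.147 in WT). A further probe set shared by Itga4 and Cerkl was not used.

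Itgb1, the beta chain of VLA-4 and of several matrix receptors, measured 9.23, 9.07 and 8.78 in DKO CpG arrays, against 8.85 and 8.65 in DKO unstimulated arrays, with overlap. In WT arrays it measured 9.28, 9.51 and 9.41 after CpG, against 8.90 and 9.05 without stimulation, with no overlap. The difference was 0.28 ± 0.15 in DKO (adjusted p = 0.284) and 0.42 ± 0.15 in WT (adjusted p = 0.0713). The WT difference passed without DKO CpG 3, an array outside the WT groups that enters the common estimate of spread (adjusted p = 0.0361), and it passed in 7 of its 24 alternatives, with adjusted p from 0.0167 to 0.847.

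Selplg had the smallest span of the 8 members over the 10 arrays, 0.49 log2 units. It measured 11.93, 11.79 and 11.89 in DKO CpG arrays, against 11.84 and 11.58 in DKO unstimulated arrays, and 12.01, 11.98 and 12.07 in WT CpG arrays, against 11.82 and 11.91 in WT unstimulated arrays. The DKO groups overlapped and the WT groups did not. The difference was 0.16 ± 0.12 in DKO (95% interval -0.10 to 0.42) and 0.15 ± 0.12 in WT (-0.11 to 0.41), and neither passed (adjusted p = 0.448 and 0.422). A second probe set of Selplg, not tested, measured 7.96 to 8.21 in DKO CpG arrays, against 7.71 and 7.91 in DKO unstimulated arrays, and 8.19 to 8.65 in WT CpG arrays, against 8.13 and 8.14 in WT unstimulated arrays.

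Markers of several cell types moved with stimulation beside these genes. The mean of the 8 tested B cell markers was 6.17 to 6.75 in DKO CpG arrays, against 6.98 and 7.27 in DKO unstimulated arrays, and 6.48 to 6.51 in WT CpG arrays, against 7.20 and 7.27 in WT unstimulated arrays. Of these 8 markers 6 lay above the array median in all 10 arrays, Cr2 did so in 7 and Fcer2a in 2. The mean of the 7 tested cDC1 markers, those of the DC subset that presents antigen to CD8 T cells, was 8.56 to 8.77 in DKO CpG arrays, against 9.25 and 9.65 in DKO unstimulated arrays, and 8.11 to 8.39 in WT CpG arrays, against 9.64 and 9.72 in WT unstimulated arrays. Conventional DC markers had means of 9.94 to 10.1 in DKO CpG arrays, against 10.3 and 10.4 in DKO unstimulated arrays, and 9.79 to 9.96 in WT CpG arrays, against 10.2 and 10.3 in WT unstimulated arrays. All 3 marker levels, each a mean over its list, were thus lower after CpG with no overlap, as Itgax and Itgb7 were. Single markers did not all fall. In WT the conventional DC marker Batf3 rose, to 11.16, 11.07 and 11.24 after CpG, against 10.74 and 10.34 without stimulation. Dpp4 and H2-Ab1 of that list, and Cd79a, Pax5 and Fcer2a of the B cell list, overlapped between the WT groups. The other markers of both lists, and all 7 tested cDC1 markers, fell in WT without overlap. In DKO Batf3, Dpp4 and H2-Ab1 of the conventional DC list overlapped, as did Cd8a, Cadm1 and Itgae of the cDC1 list. Cd79a, Ms4a1 and Pax5 of the B cell list overlapped in DKO too. The other markers of the 3 lists fell in DKO without overlap. In bulk samples fewer cells of a type and less RNA per cell cannot be told apart. With the B cell marker level as a covariate no member passed for CpG. Icam1 then differed by 0.88 in DKO (adjusted p = 0.154) and 0.87 in WT (0.121), and Itgb7 by -0.44 in DKO (0.580) and -0.86 in WT (0.219). In the same fit Itgax, Itgal and Itgb2 differed by -0.44, -0.58 and -0.58 in WT (adjusted p = 0.468, 0.447 and 0.345). These were the highest adjusted p-values among the alternatives of each result, and over all tested genes the same fit called 0.224% for CpG in DKO and 1.93% for CpG in WT. That covariate separates the CpG arrays from the unstimulated arrays without overlap in both genotypes. When the neutrophil or the macrophage marker level entered the fit, all 7 CpG calls of members stood.

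**Figure D2:**
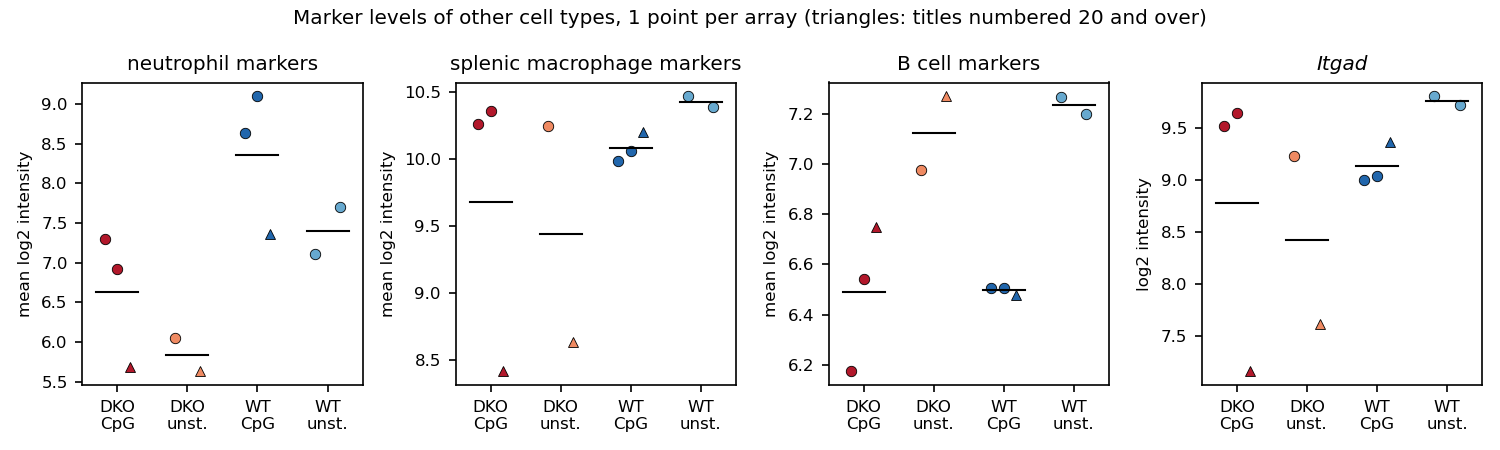
Mean log2 intensity of the tested neutrophil, splenic macrophage and B cell markers, and log2 intensity of Itgad, with 1 point per array, a bar at the group mean and triangles for titles numbered 20 and over. The B cell marker mean is lower in all CpG arrays than in the unstimulated arrays of the same genotype. The macrophage marker mean and Itgad are lowest in DKO unstimulated 2 and DKO CpG 3.

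Setting DKO against WT, no member passed. Without stimulation 0 of 8 were called, where 0.00748% of all tested genes were, and 0 of 8 had an unadjusted p under 0.05, against 4.63% of all tested genes. The differences, DKO minus WT, ran between -0.23 for Itgb1 and 0.25 for Itgb7, with adjusted p of at least 0.992. The 95% intervals were -0.59 to 0.14 for Itgb1 and -0.21 to 0.70 for Itgb7. Both DKO unstimulated arrays lay above both WT unstimulated arrays for Itgax and Itgb7 and below them for Itgb1 and Itgb2. Groups this small can easily separate by chance, and the share of all tested genes that did so is not given here. The median difference of the 8 members was -0.10, beside 0.01 over all tested genes.

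After CpG 0 of 8 members were called, where 0.120% of all tested genes were, while 4 of 8 had an unadjusted p under 0.05, against 14.3% of all tested genes. DKO minus WT after CpG was 0.73 ± 0.17 for Itgb7 (95% interval 0.36 to 1.10, adjusted p = 0.0907), and every DKO CpG array lay above every WT CpG array. For Itgax, the CD11c chain, it was 0.53 ± 0.13 (0.24 to 0.82, adjusted p = 0.105), and the DKO CpG arrays again lay above the WT CpG arrays. Itgal differed by 0.41 ± 0.16 (adjusted p = 0.276) and Itgb1 by -0.37 ± 0.13 (adjusted p = 0.250), both without overlap between the groups. Selplg differed by -0.15 ± 0.11 (adjusted p = 0.583), with each DKO CpG array below each WT CpG array by a gap of 0.04 or more. Itgb2, Icam1 and Itga4 overlapped between the genotypes, with differences of 0.22, -0.22 and 0.07. The share of all tested genes without overlap after CpG is not given here, so these separations are description only. The median difference was 0.14, beside 0.01 over all tested genes.

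The call for Itgb7 after CpG depended on the settings. Without DKO CpG 1, the DKO CpG array with the lowest values of Itgax and Itgb7, the difference was 0.89 for Itgb7 (adjusted p = 0.0314) and 0.64 for Itgax (0.0497), and both passed, in a fit that called 267 of all 13371 tested genes in place of 16. Itgb7 passed too when the title series (0.73, adjusted p = 0.0445), the Y-linked signal (0.82, adjusted p = 0.0427) or the B cell marker level (0.73, adjusted p = 0.0429) entered the fit, where 2.21%, 5.52% and 2.05% of all tested genes were called. It passed in 4 of its 24 alternatives, with adjusted p from 0.0314 to 0.655 for Itgb7 and 0.0497 to 0.691 for Itgax. Within titles numbered under 20, DKO minus WT after CpG was 0.67 for Itgb7 and 0.54 for Itgax (2 arrays against 2), and within those numbered 20 and over it was 0.84 and 0.51 (1 against 1). Itgb1 passed when the Y-linked signal entered the fit, at -0.56 after CpG (adjusted p = 0.0418, range 0.0418 to 0.903) and at -0.47 averaged over stimulation (adjusted p = 0.0356, range 0.0356 to 0.978). No WT array carried Y-linked signal, so the effect of that signal was estimated from DKO arrays alone. The DKO minus WT differences in that fit thus refer to DKO arrays without the signal. These were DKO unstimulated 2 and DKO CpG 3, where Itgb1 was lowest (8.65 and 8.78). Marker levels differed between the genotypes after CpG as well. The 13 tested neutrophil markers had means of 5.69 to 7.29 in DKO CpG arrays, against 7.36 to 9.10 in WT CpG arrays. The mean of the cDC1 markers was 8.56 to 8.77 in DKO CpG arrays against 8.11 to 8.39 in WT CpG arrays. That of the 7 tested cDC2 markers was 7.63 to 8.05 in DKO CpG arrays against 7.43 to 7.59 in WT CpG arrays. Both means were higher in DKO without overlap, but many single markers did not separate. Of the cDC1 markers, Xcr1, Wdfy4 and Naaa were higher in DKO without overlap, while Cd8a, Tlr3, Cadm1 and Itgae overlapped. Of the cDC2 markers, Cd4 and Mgl2 were higher without overlap, while Sirpa, Clec4a4, Esam, Clec10a and Dtx1 overlapped. When the neutrophil marker level entered the fit, the difference after CpG was 0.32 for Itgb7 and 0.25 for Itgax. The neutrophil marker level separated DKO from WT arrays without overlap after CpG. Without stimulation it did so too, at 5.63 and 6.05 in DKO against 7.11 and 7.70 in WT. That fit therefore could not fully tell neutrophil level from genotype, and the part of these cells in the differences was not tested.

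**Figure D3:**
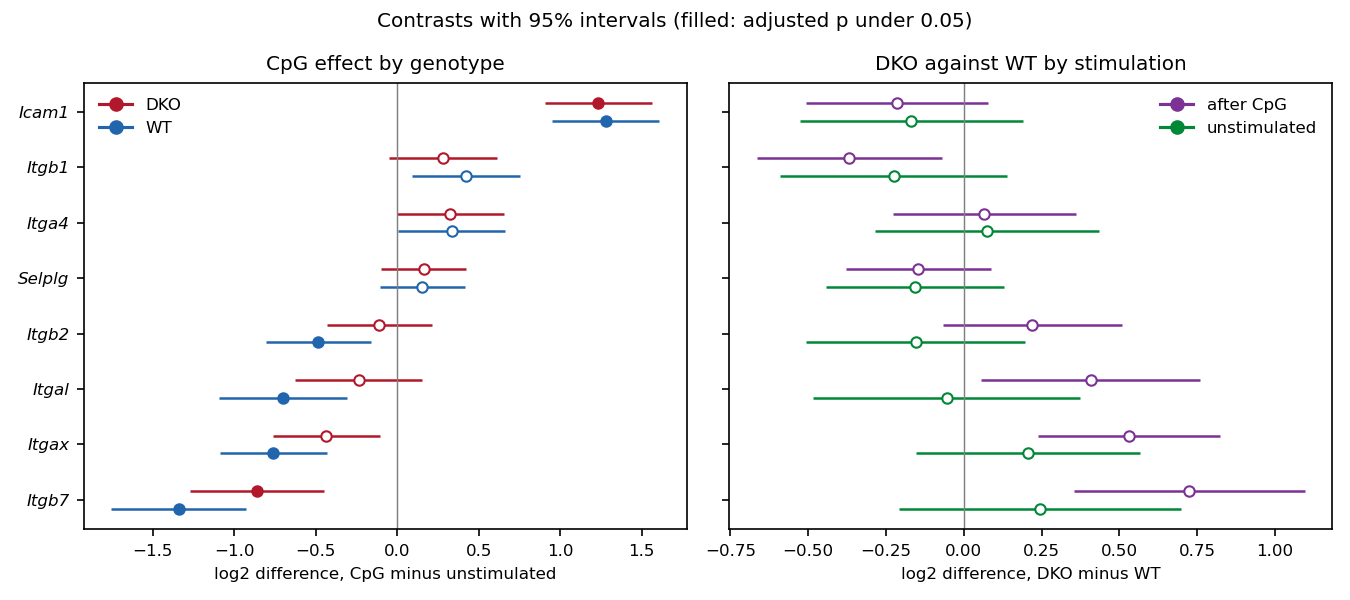
Log2 differences of the 8 members (points) with 95% intervals (lines), for CpG minus unstimulated in DKO and WT (left) and for DKO minus WT after CpG and without stimulation (right), with filled points at an adjusted p under 0.05. Icam1 and Itgb7 are filled in both genotypes on the left, Itgax, Itgal and Itgb2 are filled in WT, and no point is filled on the right.

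Averaged over stimulation, DKO minus WT gave 0 of 8 members called, where 0.0972% of all tested genes were, and 3 of 8 had an unadjusted p under 0.05, against 11.6% of all tested genes. These were Itgb7 at 0.49 ± 0.13 (adjusted p = 0.223), Itgax at 0.37 ± 0.10 (adjusted p = 0.240) and Itgb1 at -0.30 ± 0.11 (adjusted p = 0.330). The CpG effect in DKO minus that in WT was called for 0 of 8 members, where 0.00748% of all tested genes were called, and for 0 of 8 at an unadjusted p under 0.05, against 5.65% of all tested genes. The 3 members called for CpG in WT and not in DKO are therefore not shown to respond differently in the genotypes. That difference was 0.48 for Itgb7 (95% interval -0.11 to 1.07, adjusted p = 0.903), 0.46 for Itgal (-0.09 to 1.02, adjusted p = 0.902), 0.37 for Itgb2 (-0.08 to 0.83, adjusted p = 0.903) and 0.32 for Itgax (-0.14 to 0.79, adjusted p = 0.925). For Icam1 it was -0.05 (-0.51 to 0.42), so an excess of the DKO response above 0.42 or a deficit beyond 0.51 on the log2 scale lies outside the interval.

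The other genes of the adhesion machinery were taken as 4 lists, chosen with earlier results of these data known. In these lists 77 genes were tested. For CpG in DKO 7 of the 77 were called and 18 had an unadjusted p under 0.05, where the shares of all tested genes were 10.3% and 25.0%. For CpG in WT 27 were called and 39 had an unadjusted p under 0.05, where the shares of all tested genes were 21.6% and 32.7%. By direction, 4.54% of all tested genes were called higher and 5.76% lower for CpG in DKO, and 8.24% and 13.3% in WT. The median CpG difference over all tested genes was -0.04 in each genotype. The counts and medians of each list below are to be read beside these values. In no comparison of DKO with WT, nor for the difference of CpG effects, was any of the 77 called, while 5 had an unadjusted p under 0.05 without stimulation, 18 after CpG, 12 averaged over stimulation and 8 for the difference of CpG effects. Of all tested genes 4.63%, 14.3%, 11.6% and 5.65% did so in these comparisons. When the Y-linked signal entered the fit, the lists of other integrin chains, ligands and junction molecules, selectins and their ligands, and activation and adaptors had 3, 3, 1 and 1 genes called between the genotypes without stimulation, 3, 2, 1 and 1 after CpG, and 4, 5, 2 and 1 averaged over stimulation. That fit called 2.86%, 5.52% and 6.5% of all tested genes in the same comparisons. As no WT array carried Y-linked signal, its differences refer to the DKO arrays without that signal.

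Among the other integrin chains, 19 of 20 listed genes were measured and 16 tested. For CpG 1 was called higher and 1 lower in DKO, and 3 higher and 4 lower in WT, with a median difference of -0.01 in DKO and -0.44 in WT. Itga5, the alpha chain that joins Itgb1 in the fibronectin receptor, measured 8.98, 9.03 and 8.26 in DKO CpG arrays, against 7.35 and 6.90 in DKO unstimulated arrays, and 8.98, 8.66 and 8.91 in WT CpG arrays, against 7.52 and 7.15 in WT unstimulated arrays. It was higher in every CpG array than in every unstimulated array, by 1.63 ± 0.24 in DKO (adjusted p = 0.00284) and 1.52 ± 0.24 in WT (adjusted p = 0.00151). Itga8, another partner of Itgb1, measured 5.62, 5.59 and 6.08 in DKO CpG arrays, against 6.94 and 6.46 in DKO unstimulated arrays, and 5.17, 5.41 and 5.13 in WT CpG arrays, against 6.89 and 7.15 in WT unstimulated arrays. It fell by 0.94 on the log2 scale in DKO (adjusted p = 0.0138) and by 1.78 in WT (adjusted p = 0.000218), and its WT CpG values lay below the array medians. The DKO call of Itga8 was lost without DKO unstimulated 1 (adjusted p = 0.100) and in a fit of the DKO arrays alone (0.0730, range 0.00372 to 0.353). Itgb8, a beta chain that pairs with Itgav and helps to activate latent TGF-beta, was 0.71 ± 0.16 higher after CpG in WT (adjusted p = 0.00864), a call lost without WT unstimulated 1 (0.109, range 0.00281 to 0.577). Its values of 4.94 and 5.34 in the WT unstimulated arrays lay below the array medians. Without WT CpG 1 or WT CpG 3 the number called for CpG in WT was 4 in place of 7. Those fits called 15.6% and 17.1% of all tested genes, in place of 21.6%. Without either WT unstimulated array, which left a single array in that group, fewer of the list and of all tested genes were called. The same held for CpG in DKO without DKO unstimulated 1. Of the partners of the members, Itgae, which joins Itgb7, differed by 0.08 in DKO and -0.72 in WT, and Itgam, the Mac-1 chain that joins Itgb2, by -0.49 in DKO and -0.60 in WT, and neither passed (adjusted p = 0.902 and 0.267 in DKO, and 0.0852 and 0.123 in WT).

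Itgad, a further partner of Itgb2, was set apart by the 2 DKO arrays with low macrophage markers, as were Itga9, Itgb5 and Vcam1, and all 4 were chosen after their values were seen. Itgad measured 9.53, 9.65 and 7.16 in DKO CpG arrays, against 9.23 and 7.62 in DKO unstimulated arrays, and 9.0, 9.04 and 9.37 in WT CpG arrays, against 9.81 and 9.72 in WT unstimulated arrays. The lowest values were those of DKO CpG 3 and DKO unstimulated 2. Vcam1, which stands in the macrophage marker list, measured 9.20 and 9.90 in these 2 arrays, against 10.6 to 11.7 in the other 8. Over all 10 arrays, no member of the 8 had its lowest values in both of these arrays except Itgb1, at 8.78 and 8.65. Icam1 was lowest in DKO CpG 3 among the CpG arrays (11.62) and in DKO unstimulated 2 among the unstimulated arrays (10.49). For Itgax both arrays lay above 11.5.

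Among integrin ligands and junction molecules, 21 of 22 were measured and 17 tested. For CpG 2 were called higher and 0 lower in DKO, and 3 higher and 2 lower in WT, with a median difference of 0.25 in DKO and 0.27 in WT. Pvr, the poliovirus receptor, a nectin-like molecule bound by Cd226, measured 8.82, 8.61 and 8.42 in DKO CpG arrays, against 7.33 and 7.08 in DKO unstimulated arrays, and 8.98, 9.11 and 8.41 in WT CpG arrays, against 7.75 and 7.88 in WT unstimulated arrays. It was higher by 1.41 ± 0.20 in DKO (adjusted p = 0.00260) and 1.02 ± 0.20 in WT (adjusted p = 0.00539), and the WT call was lost without WT unstimulated 1 (0.0546, range 0.000270 to 0.523). F11r, the junction protein JAM-A that LFA-1 can bind, was higher by 1.18 ± 0.27 in DKO (adjusted p = 0.0223) and 1.11 ± 0.27 in WT (adjusted p = 0.0152). The DKO call of F11r was lost without DKO CpG 1 (0.0625) or DKO unstimulated 2 (0.181), in a fit of the DKO arrays alone (0.0975) and without the 2 DKO arrays lacking Y-linked signal (0.134), in a range of 0.0114 to 0.811. In WT Pecam1, an adhesion molecule of endothelium and leukocytes, differed by -0.61 ± 0.13 (adjusted p = 0.00641) and Cd47, a partner of integrins and ligand of Sirpa, by 0.51 ± 0.11 (adjusted p = 0.00953). The call of Pecam1 was lost without WT unstimulated 2 (0.0664, range 0.00204 to 0.231), and that of Cd47 without WT unstimulated 1 (0.0536) or WT unstimulated 2 (0.0780, range 0.00287 to 0.371). Without either WT unstimulated array, which left a single array in that group, fewer of the list and of all tested genes were called for CpG in WT. The same held for CpG in DKO without DKO unstimulated 2. For CpG in DKO the number called was 1 in place of 2 without DKO CpG 1, and 4 without DKO CpG 3. Those fits called 5.5% and 14.3% of all tested genes, in place of 10.3%. Vcam1, the ligand of VLA-4, differed by -0.05 in DKO and -0.91 in WT and did not pass.

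Among selectins, their ligands and the enzymes that modify those ligands, 16 of 17 were measured and 14 tested. For CpG 0 were called higher and 1 lower in DKO, and 3 higher and 3 lower in WT, with a median difference of 0.03 in DKO and -0.14 in WT. Fut7, the fucosyltransferase that makes PSGL-1 a selectin ligand, measured 5.61, 5.05 and 5.33 in DKO CpG arrays, against 6.21 and 6.09 in DKO unstimulated arrays, and 5.09, 4.87 and 5.12 in WT CpG arrays, against 5.70 and 5.92 in WT unstimulated arrays. All CpG arrays lay below all unstimulated arrays, and the 3 WT CpG values and those of DKO CpG 2 and DKO CpG 3 lay below the array medians. The difference was -0.82 ± 0.17 in DKO (adjusted p = 0.0128) and -0.78 ± 0.17 in WT (adjusted p = 0.00759). The calls were lost without DKO unstimulated 1 (0.0748) or DKO unstimulated 2 (0.0611) and in a fit of the DKO arrays alone (0.0691, range 0.00879 to 0.111) in DKO, and without WT unstimulated 2 in WT (0.0836, the highest of its alternatives). In WT Tpst1, which sulfates tyrosines such as those PSGL-1 needs for P-selectin, was 1.27 ± 0.27 higher (adjusted p = 0.00698), and Fut4, a second fucosyltransferase, was at -0.64 ± 0.14 (adjusted p = 0.0102). Tpst1 lost its call without WT unstimulated 2 (0.0623, range 0.00266 to 0.345), and Fut4 without WT unstimulated 1 (0.0837) or WT unstimulated 2 (0.0566, range 0.00401 to 0.494). Leaving out either WT unstimulated array left a single array in that group. Fewer genes of this list and of all tested genes were then called for CpG in WT. The same held for CpG in DKO without either DKO unstimulated array. Without DKO CpG 2 the number called for CpG in DKO was 2 in place of 1, where 6.94% of all tested genes were called in place of 10.3%.

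Among integrin activation and adaptor genes, 34 of 38 were measured and 30 tested. For CpG 0 were called higher and 2 lower in DKO, and 2 higher and 7 lower in WT, with a median difference of -0.11 in DKO and -0.20 in WT. Sipa1, which switches off the small GTPase Rap1 that drives integrin activation, measured 7.99, 8.24 and 8.59 in DKO CpG arrays, against 9.44 and 9.18 in DKO unstimulated arrays, and 7.69, 7.59 and 7.30 in WT CpG arrays, against 9.09 and 9.13 in WT unstimulated arrays. The groups did not overlap, and the difference was -1.03 ± 0.18 in DKO (adjusted p = 0.00729) and -1.58 ± 0.18 in WT (adjusted p = 0.000277). Rasgrp2, which switches Rap1 on, measured 6.88, 6.92 and 6.78 in DKO CpG arrays, against 7.59 and 6.86 in DKO unstimulated arrays, and 6.25, 6.47 and 6.73 in WT CpG arrays, against 7.86 in both WT unstimulated arrays. It fell in WT, by 1.38 ± 0.20 (adjusted p = 0.000985, passing in 24 of 24 alternatives). In DKO the Rasgrp2 groups overlapped and the gene did not pass. Was, an activator of actin branching, differed by -0.60 ± 0.14 in DKO (adjusted p = 0.0259) and -1.03 ± 0.14 in WT (adjusted p = 0.000802). The DKO call of Was was lost without DKO CpG 1 (0.0691), DKO unstimulated 1 (0.136) or DKO unstimulated 2 (0.0815), when the neutrophil markers entered the fit (0.0633) and in a fit of the DKO arrays alone (0.104, range 0.0159 to 0.644). The DKO call of Sipa1 was lost without DKO unstimulated 1 (0.0544, range 0.00188 to 0.399). Also called in WT were Fermt3, the kindlin of blood cells that binds integrin beta tails, at -0.77, Tln1, the talin that does so too, at -0.57, Parvg at -0.75, Actn4 at -0.40, Ptk2b at 0.68 and Fgr at 0.63. Leaving out WT unstimulated 2 left a single array in that group. Fewer genes of this list and of all tested genes were then called for CpG in WT. The same held for CpG in DKO without DKO unstimulated 1 or DKO unstimulated 2. For CpG in DKO the number called was 1 without DKO CpG 1 and 4 without DKO CpG 3, in place of 2. Those fits called 5.5% and 14.3% of all tested genes, in place of 10.3%. With the B cell marker level as a covariate the 4 lists had, in the order given above, 0, 0, 1 and 0 genes called for CpG in DKO and 0, 0, 2 and 1 for CpG in WT, where 0.224% and 1.93% of all tested genes were called.

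**Figure D4:**
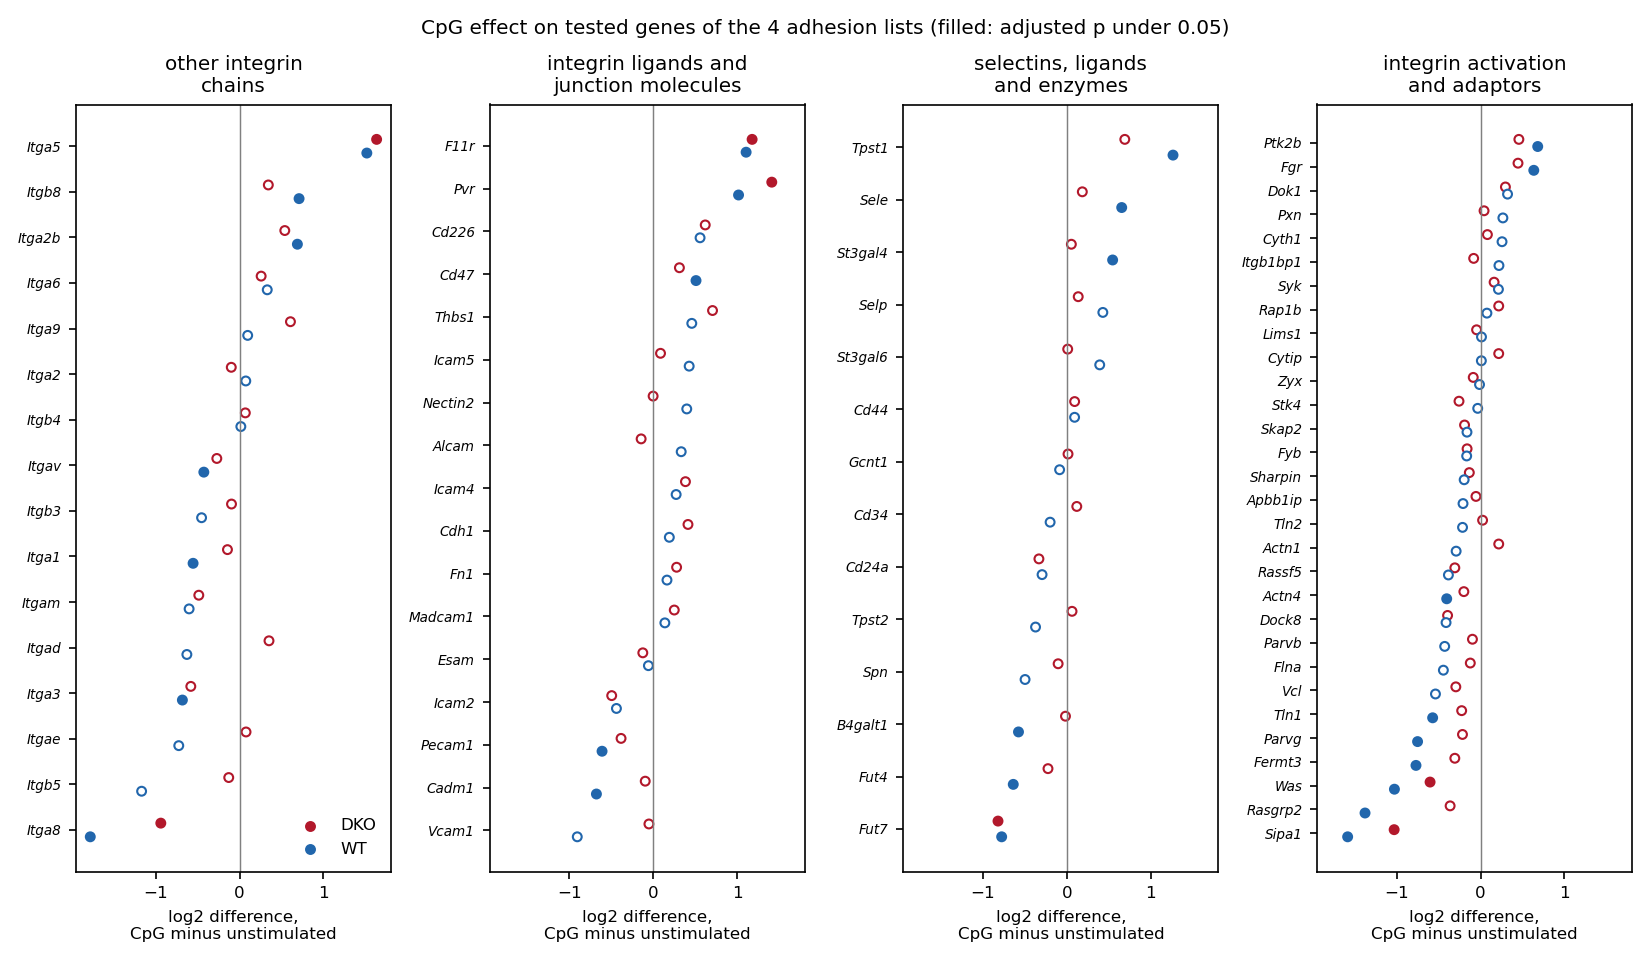
Log2 difference, CpG minus unstimulated (horizontal axis), of the tested genes of the 4 lists in DKO (red) and WT (blue), with filled points at an adjusted p under 0.05. Itga5, Pvr and F11r are filled to the right of 0 and Itga8, Fut7, Was and Sipa1 to the left of 0 in both genotypes.

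For the 4 members whose values spanned more than 1 log2 unit, the genes with the most similar course over the 10 arrays were found by the root-mean-square difference of values centred on each gene's mean. For Icam1, which spanned 1.67, these were Gadd45b (0.0900), a stress-inducible gene, Ifitm1 (0.0989), an interferon-induced membrane protein, and Nfkbiz (0.105), a nuclear regulator of NF-kB targets. Gadd45b differed by 1.18 in DKO and 1.21 in WT after CpG. For Itgb7, which spanned 1.93, they were Mfng (0.0907), which modifies Notch receptors, the deacetylase Hdac10 (0.117) and the receptor partner Ramp1 (0.134). Mfng differed by -0.79 in DKO and -1.41 in WT. For Itgax, which spanned 1.17, they were Wdfy4 (0.0665), a gene needed by cDC1 for cross-presentation and 1 of the cDC1 markers, the SNARE Stx17 (0.0772) and the kinase Mink1 (0.0782). Wdfy4 differed by -0.45 in DKO and -0.90 in WT. For Itgal, which spanned 1.18, they were Tmem156 (0.104), the adenylyl cyclase Adcy9 (0.104) and the DNA repair enzyme Ogg1 (0.108). These distances over 10 arrays are a description, and the arrays share their groups.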

How the data were processed

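Per the submitters' processing notes, the authors summarised the arrays with RMA in Affymetrix Expression Console, and the deposited table holds a log2 intensity for each probe set. Tool versions, genome build and probe annotation were not given in the sources used here. RMA corrects background and normalizes arrays jointly, so values compare the same gene between arrays, not different genes. Of 41345 probe sets, 23521 had 1 gene symbol, 1814 several and 16010 none in the platform annotation, and only those with 1 were named. Genes above the array median in at least 2 arrays were tested. No detection calls were used, and the number of arrays limits the precision.

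All 10 arrays entered 1 limma fit (version 3.58.1, R 4.3.3) of 4 group means and 6 contrasts, moderated by eBayes. Degrees of freedom were 6 residual and 4.49 prior. Tests were two-sided and adjusted over all tested genes per contrast (Benjamini-Hochberg), with calls under 0.05. The ± values give the standard error of a difference. Overlap between groups is described for named genes, with no share over all tested genes beside it. Plots used matplotlib 3.10.9 (Python 3.11.15), and the fit was tested on simulated data. Alternatives were 14 settings of probe set choice, filter, normalization, variance model, arrays and covariates, and leaving out each of the 10 arrays.

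Named genes were the 8 members, up to 3 called genes with the smallest p per list and contrast, the 3 genes most like each member spanning over 1 log2 unit, and markers of cell types. Other genes named from the lists, such as partners of the members, were chosen after their values were seen. The members and lists were chosen with earlier results of these data known. Protein sequences were not used here.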

Additional observations from a re-analysis of the deposited data

How the results depend on the processing

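Of the 7 CpG calls of members, Icam1 and Itgb7 in WT and Icam1 in DKO stood in every setting but the B cell covariate. That covariate left 0 members called for CpG in either genotype and 1 for DKO minus WT after CpG. With 1 WT CpG array left out, fewer than 5 members were called for CpG in WT, and 15.6% to 17.1% of all tested genes. Without DKO CpG 3 these were 6 members and 24.1%, against 5 members and 21.6% with all arrays. With 1 DKO CpG array left out, 2 members stayed called for CpG in DKO, beside 5.5% to 14.3% of all tested genes. A fit of the DKO arrays alone called 1 member and 3.01% of all tested genes. Leaving out an unstimulated array of the genotype left a single array in that group. Fewer members and fewer of all tested genes were then called for CpG in that genotype. Between the genotypes after CpG, 2 members were called without DKO CpG 1, beside 2% of all tested genes. Leaving out another CpG array gave 0 members, beside 0.015% to 0.217%. The title series as a term gave 1 member, beside 2.21%, and Y-linked signal gave 2, beside 5.52%. Averaged over stimulation 1 member was called with Y-linked signal, beside 6.5% of all tested genes. Over all genes the B cell covariate called 30 for CpG in DKO and 258 for CpG in WT, in place of 1377 and 2885, and Y-linked signal called 738 for DKO minus WT after CpG, in place of 16. No member was called for DKO minus WT without stimulation or for the difference of CpG effects in any setting run. No paired analysis was possible because the labels give no shared replicate numbers.

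Sign changes numbered 52 in 19 results. None of these was called in either setting, and the cause was not tested. Centring arrays on their median gave Itga4 0.02 for the difference of CpG effects. The title series gave Itgal 0.0354 and Itga4 -0.0528 without stimulation (DKO minus WT), and Itga4 0.12 and Selplg -0.0053 for the difference of CpG effects. Array weights gave Selplg -0.0021 for that difference. Y-linked signal gave Itgb2 -0.0621 averaged, and Itga4 0.0373 and Selplg -0.0051 for the difference of CpG effects. The neutrophil covariate gave, for DKO minus WT without stimulation, Itgax -0.0442, Itgal 0.19, Itgb7 -0.12, Itga4 -0.13, Itgb1 0.0154 and Icam1 0.15. It gave Itga4 -0.15 and Icam1 0.13 after CpG, and Itga4 -0.14 and Icam1 0.14 averaged. The B cell covariate gave Itgb1 -0.19 and Selplg -0.0194 for CpG in DKO, Itgb1 -0.13 and Selplg -0.0595 for CpG in WT, and Icam1 0.01 for the difference of CpG effects. The macrophage covariate gave Itga4 -0.0618 without stimulation, -0.0258 averaged and 0.0721 for the difference of CpG effects, and Selplg -0.016 for that difference as well. Without the 2 DKO arrays lacking Y-linked signal, Itgb2 was 0.0065 for CpG in DKO, Itga4 was -0.14 without stimulation, -0.0626 averaged and 0.16 for the difference of CpG effects, and Selplg was -0.13 for that difference. With single arrays left out, the ranges that crossed 0 were -0.28 to 0.17 for Itgal and -0.14 to 0.29 for Itga4 without stimulation, -0.0299 to 0.0841 for Itgb2 and -0.0381 to 0.18 for Itga4 averaged, and -0.23 to 0.21 for Itga4, -0.17 to 0.0735 for Icam1 and -0.12 to 0.14 for Selplg for the difference of CpG effects.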

Other observations

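Estimates of DKO minus WT had opposite signs with and without CpG for both LFA-1 chains. The difference of CpG effects passed for neither (adjusted p = 0.902 for Itgal and 0.903 for Itgb2). Itgal was at 0.41 after CpG and -0.06 ± 0.19 without stimulation, and Itgb2 was at 0.22 and -0.15 ± 0.16. Both unstimulated estimates were smaller in size than their standard errors, so their signs are not established. That of Itgal was positive with the title series as a term (0.0354), with the neutrophil covariate (0.19) and without WT unstimulated 2 (0.17). That of Itgb2 stayed negative in all 24 alternatives, from -0.26 to -0.0073. The other integrin chains list held further genes called for CpG in WT and not called in DKO, with the difference of CpG effects called for none of them. Itga2b, the platelet fibrinogen receptor chain, differed by 0.54 in DKO and 0.69 in WT. Itga3, a laminin receptor chain, differed by -0.58 in DKO and -0.68 in WT, and its values in all 6 CpG arrays lay below the array medians. Itgav differed by -0.27 in DKO and -0.43 in WT, and Itga1 by -0.14 in DKO and -0.55 in WT. All 4 were picked with their values in view.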
